A study of Mus musculus with 6 samples.

Results

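The 10 genes described here encode enzymes that make or break down eicosanoids, the short-lived lipid signals derived from arachidonic acid. They were taken by name from the main steps of the pathway (Pla2g4a, Alox5, Alox5ap, Lta4h, Ltc4s, Alox12, Ptgs1, Hpgds, Tbxas1 and Hpgd), and all 10 were found among the 24815 gene identifiers of the deposited tables. RNA sequencing was done on common myeloid progenitors, the fetal precursors of red cells, platelets, granulocytes and monocytes, sorted from C57BL/6 mouse liver at E13.5 (embryonic day) as cells lacking lineage antigens and Sca-1, positive for c-kit and CD34, and low for Fc receptors. The 3 wild-type libraries (A, F and L) were compared with 3 libraries (C, D and Q) from embryos homozygous for loss of the -77 enhancer of Gata2 (-77-/-), which leaves the coding sequence of that transcription factor gene in place. The mutation is in every cell of the embryo, so effects inside the progenitors and effects of other tissues on them cannot be told apart. Whether each library was a separate embryo or a pool is not given in the sources used here, so p-values measure the spread between these libraries, which may be technical.

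Eicosanoid synthesis starts when cytosolic phospholipase A2 frees arachidonic acid from membranes. In the lipoxygenase arm, 5-lipoxygenase and its partner protein FLAP make leukotriene A4, which is turned into leukotriene B4 or leukotriene C4; in the cyclooxygenase arm, prostaglandin H2 is made and then converted to prostaglandin D2, thromboxane and other prostanoids. Mast cells, basophils and eosinophils are known for cysteinyl leukotrienes and prostaglandin D2, platelets for thromboxane and 12-lipoxygenase products, and neutrophils and macrophages for leukotriene B4.

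The lowest wild-type library for Alox5 lay above all mutant libraries, and the highest wild-type library for Hpgd lay below all of them. None of the other 8 genes passed the test with all libraries or without mutant C. With all 6 libraries, 0 of the 10 genes passed an adjusted p of 0.05 in edgeR's quasi-likelihood test, against 0.155% of the 12222 genes tested. Without mutant C, a library that stands apart, Alox5 fell 5.66-fold and Hpgd rose 2.15-fold. Those are 1 gene of 10 in each direction, beside 0.761% of 12614 tested genes that fell and 0.0793% that rose. By DESeq2 the same pair passed with all 6 libraries, where it called 1.16% of genes. An unadjusted p under 0.05 was found for 4 of the 10 genes with all libraries (Alox5, Alox12, Hpgds and Hpgd), compared with 4.80% of all genes. The groups did not overlap for 3 of the 10 (Alox5, Alox12 and Hpgd), compared with 22.0% of all genes. Alox12 is in both counts, although it was tested only because of its wild-type level, so its lower mutant value was built in. The median log2 change of the 10 genes was 0.19 with all libraries and 0.06 without mutant C, next to -0.02 and -0.01 over all genes tested. The genes were chosen with earlier results of these data known, so these shares describe the set and do not test it.

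The libraries held between 14473913 and 30596279 expected counts. Mutant C differed in composition: weighting genes by their counts gave an average length of 1781 bases there, and 2834 to 3124 bases in the other 5 libraries. Of the genes of the sorting gate, Cd34 and Kit stood at 803 ± 102 and 328 ± 10.1 CPM in wild type and at 1092 ± 141 and 221 ± 104 CPM in the mutant (SD, n = 3 per group; CPM is the count per library size after TMM scaling), while Cd3e of T cells was at 0 counts in all 6. Transcripts of Itga2b, whose protein CD41 was gated against, fell from 31.4 ± 5.66 to 7.96 ± 0.152 CPM (edgeR adjusted p = 0.032 with all libraries). Gata2 itself was measured at 78.6, 57.4 and 63.9 CPM in wild type A, F and L and at 8.92, 16.5 and 17.8 CPM in mutant C, D and Q. In bulk RNA, fewer cells of a type and less RNA per cell cannot be told apart.

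Among the 10 genes, compared per unit of transcript length, Alox5ap and Lta4h had the highest levels, and Alox5 came after them in the order. In wild type the deposited TPM values (transcript abundance corrected for gene length) put Alox5ap first with 191 ± 0.840, followed by Lta4h with 168 ± 5.65, Pla2g4a with 74.7 ± 3.36 and Ptgs1 with 49.3 ± 5.85 (SD, n = 3). Hpgd came next with 10.4 ± 0.180 TPM, and the 5 genes from Alox5ap to Hpgd each lay apart from the next in the order. Alox5 had 6.34 ± 2.21 TPM, Hpgds 3.86 ± 0.842, Tbxas1 2.16 ± 1.25 and Ltc4s 2.0 ± 0.526, and the ranges of neighbours among these 4 overlapped. Alox12 was last with 0.430 ± 0.0346 TPM. In mutants D and Q the order was the same except that Alox5, at 0.940 and 1.07 TPM, had moved below Ltc4s, at 1.48 and 1.61 TPM. Within a library, the TPM of Alox5 came to 4.64%, 2.42% and 2.91% of that of Alox5ap in wild type A, F and L, and to 0.126%, 0.486% and 0.569% in mutants C, D and Q.

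**Figure D1:**
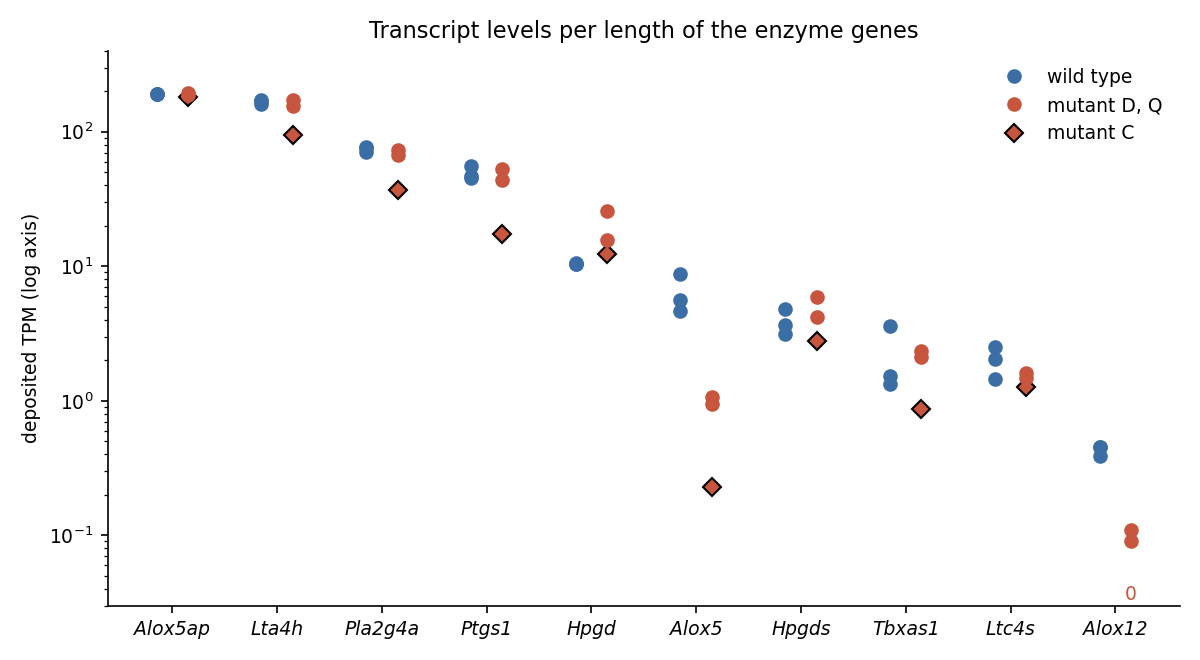
Deposited TPM (log axis) of the 10 enzyme genes in each library, ordered by the wild-type mean, with wild type in blue, mutant in red and mutant C as a diamond. Alox5ap and Lta4h lie above 90 TPM in all 6 libraries, and Alox12 is listed at 0 TPM in mutant C, marked by a 0 at the lower edge.

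Alox5 encodes 5-lipoxygenase, the enzyme that commits arachidonic acid to leukotrienes. It lies on the minus strand of chromosome 6 from 116410077 to 116461178 (ENSMUSG00000025701, GENCODE M21 on GRCm38, which is mm10), on the same chromosome as Gata2, Hpgds and Tbxas1. Hpgd encodes the NAD-dependent dehydrogenase that starts the inactivation of prostaglandins, and lies on the plus strand of chromosome 8 from 56294585 to 56321043 (ENSMUSG00000031613). Their promoter windows, the 250 bases before and 50 after the annotated start in RefSeq on GRCm38.p6, are shown because these are the genes past the threshold without mutant C. They are read along the gene's strand at chr6:116461129-116461428 (minus) and chr8:56294302-56294601 (plus), and capitals mark GATA letters.
Alox5: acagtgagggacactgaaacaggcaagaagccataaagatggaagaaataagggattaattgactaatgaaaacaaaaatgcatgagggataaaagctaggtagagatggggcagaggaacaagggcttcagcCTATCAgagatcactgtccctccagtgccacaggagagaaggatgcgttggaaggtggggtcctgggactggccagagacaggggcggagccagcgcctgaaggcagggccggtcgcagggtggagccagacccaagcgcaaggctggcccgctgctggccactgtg
Hpgd: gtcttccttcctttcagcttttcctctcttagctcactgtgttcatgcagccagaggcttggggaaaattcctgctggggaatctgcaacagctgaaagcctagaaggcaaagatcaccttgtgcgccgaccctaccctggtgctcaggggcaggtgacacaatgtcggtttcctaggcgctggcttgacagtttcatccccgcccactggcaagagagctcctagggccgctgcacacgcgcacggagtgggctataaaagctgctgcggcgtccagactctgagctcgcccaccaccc
The letters searched, on both strands, were the motif AGATAA, its variant AGATAG, the form starting with T, TGATAA, and its variant TGATAG. The Alox5 window holds 1 match, CTATCA, which is TGATAG on the other strand and begins 117 bases before the start (position -117). The Hpgd window holds none. A window was found in the table for 9 of the 10 genes (all but Alox5ap), and of their 10 windows 2 hold a match: that of Alox5 and 1 of the 2 of Pla2g4a. Of all 32851 windows of the same length, 29.8% hold at least 1, so a match is common and is given as a description only.

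Alox5 counts were low but spread over all wild-type libraries. The expected counts were 245, 86 and 135 in wild type A, F and L and 6, 29 and 44 in mutants C, D and Q. Scaled for depth these wild-type levels are 9.74, 5.42 and 7.99 CPM, and the mutant levels 0.661, 1.39 and 1.36 CPM. The lowest wild-type library was thus well above the highest mutant library, and mutant C was the lowest of all. With all 6 libraries the log2 change was -2.70 with a standard error of 0.36 (95% interval -3.57 to -1.82), and edgeR gave an adjusted p of 0.068. Without mutant C it was -2.50 with a standard error of 0.30 (edgeR adjusted p = 0.012), and with any other library left out it ran from -2.90 to -2.50 with adjusted p from 0.22 to 0.36. DESeq2 on all 6 libraries gave a log2 change of -2.67 (adjusted p = 4.6e-09), limma-voom gave an adjusted p of 0.070, and edgeR without the low-count filter 0.045. The change was below 0 under every alternative run.

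**Figure D2:**
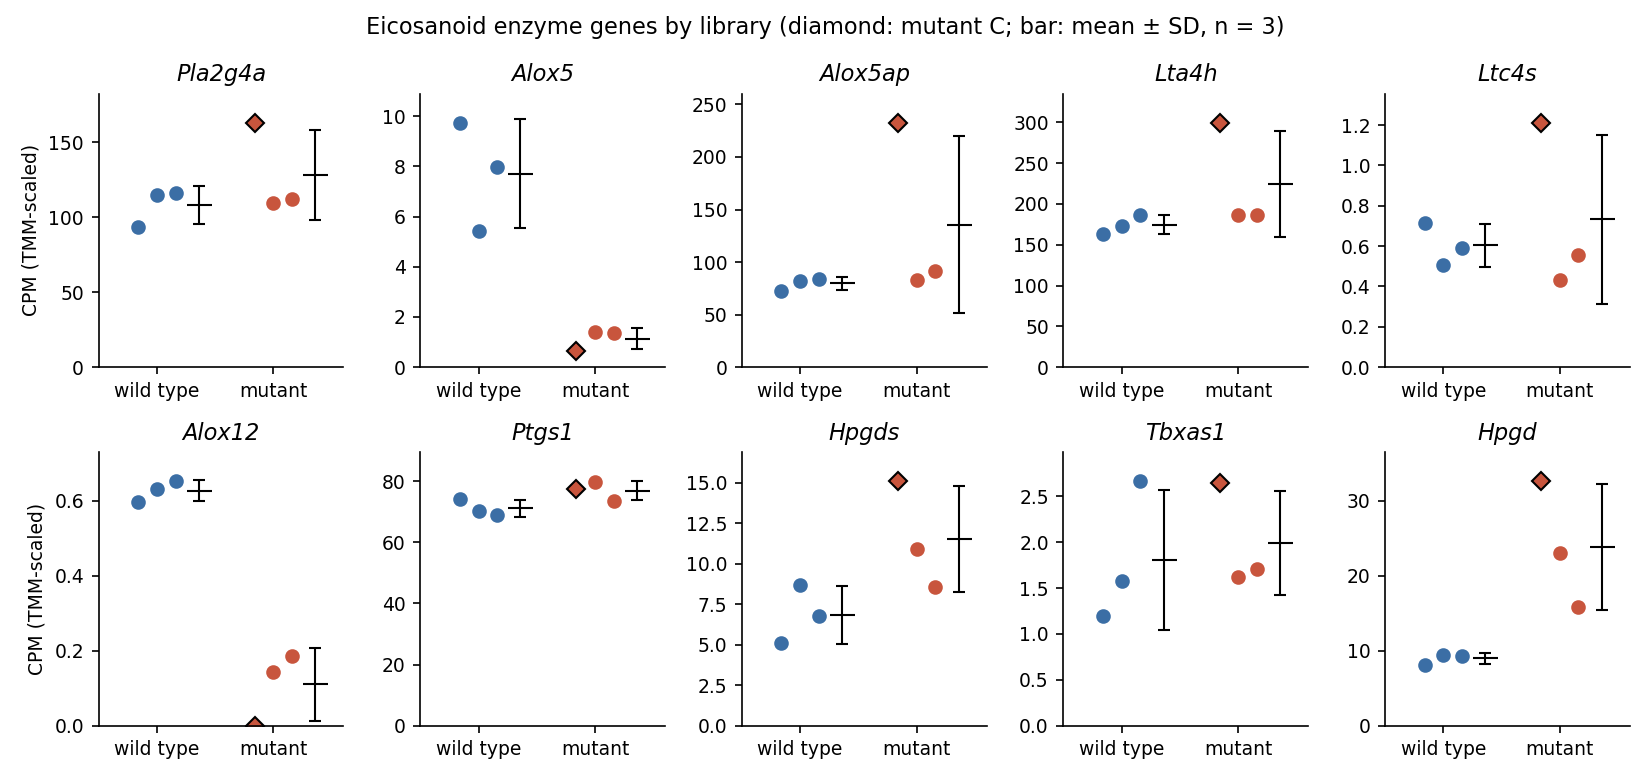
CPM of each of the 10 enzyme genes in wild-type (blue) and mutant (red) libraries, with a separate axis from 0 for every gene, mutant C as a diamond, and the mean ± SD of 3 libraries beside the points. The groups are apart for Alox5 (5.42 CPM or more against 1.39 or less), Alox12 and Hpgd, and mutant C is the highest library for Pla2g4a, Alox5ap, Lta4h, Ltc4s, Hpgds and Hpgd.

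The partners of 5-lipoxygenase did not pass the test. Alox5ap encodes FLAP, the membrane protein that presents arachidonic acid to 5-lipoxygenase, and stood at 72.6, 82.2 and 84.4 CPM in wild type A, F and L and at 232, 83.1 and 91.3 CPM in mutants C, D and Q. Mutant D lay within the wild-type range, mutant Q was slightly above it, and mutant C was far above. The log2 change was 0.76 (95% interval -0.23 to 1.76) with all libraries and 0.12 (-0.08 to 0.33) without mutant C, and in deposited TPM the 6 libraries ran only from 183 to 193. Lta4h encodes leukotriene A4 hydrolase, which makes leukotriene B4, with wild-type levels of 164, 173 and 186 CPM and mutant levels of 299, 186 and 187 CPM. Its log2 change was 0.36 (-0.21 to 0.93) with all libraries and 0.09 (-0.10 to 0.28) without mutant C. Neither interval without mutant C reached past 0.33 in either direction, whereas that of Alox5 ran from -3.20 to -1.80.

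Ltc4s, which encodes the synthase that joins leukotriene A4 to glutathione, was near the limit of what these libraries can show. It had 18.1, 7.5 and 10.2 expected counts in wild type and 11, 8.57 and 17.8 in mutants C, D and Q. The log2 change was 0.14 (95% interval -0.97 to 1.25) with all libraries and -0.30 (-1.24 to 0.65) without mutant C, so these data do not settle whether there was a change within these limits. The gene overlaps Gm26542, an antisense gene on the opposite strand that is also in the deposited tables (mean of 17.0 counts). Whether reads were counted by strand is not given in the sources used here, so the division of reads between them is uncertain.

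Alox12, which encodes the 12-lipoxygenase of platelets, was the least abundant of the 10. It had 15.1, 9.60 and 11.4 expected counts in wild type A, F and L and 0, 3.01 and 6.03 in mutants C, D and Q, or 0.596 to 0.651 CPM against 0 to 0.186 CPM. All mutant libraries were below all wild-type libraries. The gene passed the low-count filter only through the wild-type libraries, so a lower mutant level was built into its being tested. The log2 change was -2.14 (standard error 0.54, edgeR adjusted p = 0.56) with all libraries and -1.87 (0.47, adjusted p = 0.20) without mutant C. It did not pass by DESeq2 or limma-voom.

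At the head of the pathway, Pla2g4a, which encodes cytosolic phospholipase A2 alpha, was measured at 93.4, 115 and 116 CPM in wild type A, F and L and at 163, 110 and 112 CPM in mutants C, D and Q. Mutants D and Q lay within the wild-type range. Without mutant C the log2 change was 0.03 with a 95% interval from -0.21 to 0.28, and with all libraries 0.25 (-0.27 to 0.77). Ptgs1 encodes cyclooxygenase 1, the constitutive prostaglandin H2 synthase, and varied little in CPM. Wild-type levels were 74.2, 70.1 and 68.9 CPM and mutant levels 77.3, 79.7 and 73.5 CPM, with ranges that overlapped. Its log2 change was 0.11 (-0.21 to 0.44) with all libraries and 0.10 (-0.08 to 0.28) without mutant C. On the log2(TPM + 1) scale with all libraries the sign turned for both, to -0.39 for Pla2g4a and -0.50 for Ptgs1, where the median of all genes was -0.54. Ptgs2, the gene of the inducible cyclooxygenase, was at 0.253 ± 0.0651 TPM in wild type and 0.217 ± 0.146 TPM in the mutant (SD, n = 3), against 49.3 and 38.0 TPM for Ptgs1; it is named after its values were seen.

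**Figure D3:**
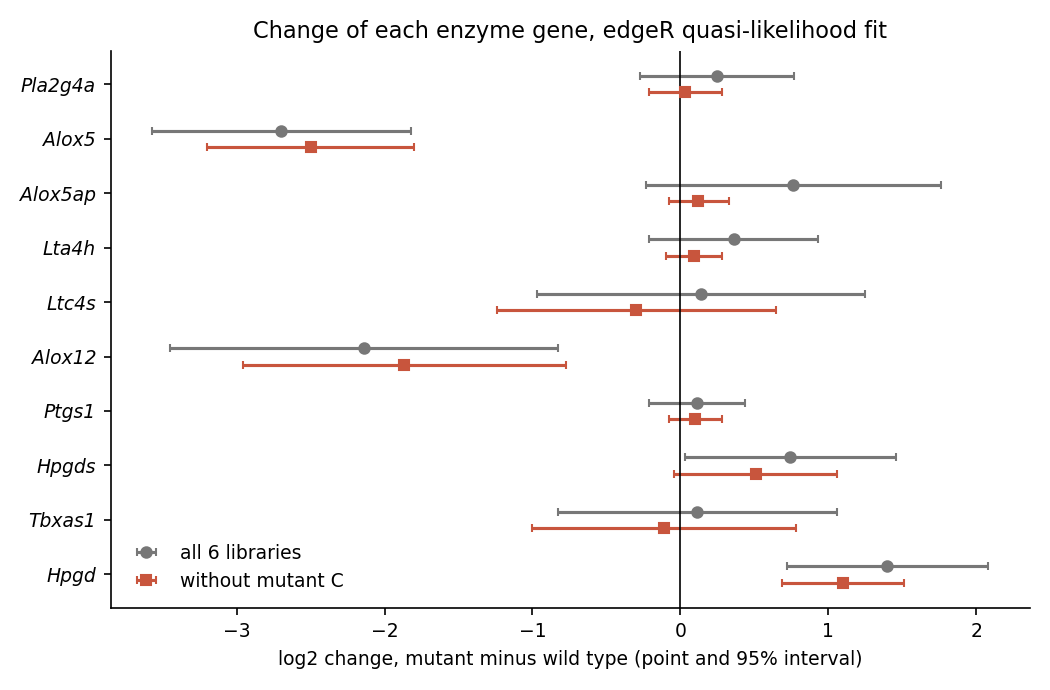
Log2 change (mutant minus wild type) of each enzyme gene with its 95% interval from the edgeR fit, with all 6 libraries (grey) and without mutant C (red). The intervals of Alox5, Alox12 and Hpgd lie on one side of 0 in both fits, and those of Pla2g4a, Alox5ap, Lta4h, Ltc4s, Ptgs1 and Tbxas1 include 0 in both. Alox12 passed the low-count filter only through the wild-type libraries, so a lower mutant level was built into its being tested.

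Of the enzymes that act on prostaglandin H2, Hpgds makes prostaglandin D2 in hematopoietic cells. It had 5.09, 8.70 and 6.75 CPM in wild type A, F and L and 15.1, 10.9 and 8.59 CPM in mutants C, D and Q. The mutant values were mostly the higher ones, but mutant Q lay just below wild type F. The log2 change was 0.74 (95% interval 0.03 to 1.46, edgeR adjusted p = 0.58) with all libraries and 0.51 (-0.04 to 1.06, adjusted p = 0.51) without mutant C. Tbxas1, which encodes thromboxane A synthase, had 1.19, 1.58 and 2.66 CPM in wild type A, F and L, against 2.64, 1.62 and 1.71 CPM in mutants C, D and Q. All mutant values lay within the wild-type range, and the log2 change was 0.11 (-0.83 to 1.06) with all libraries and -0.11 (-1.0 to 0.78) without mutant C. One end of Tbxas1 overlaps Hipk2 on the opposite strand, which had a mean of 836 counts, so its reads are uncertain for the same reason as those of Ltc4s.

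Hpgd was the only 1 of the 10 genes whose mutant libraries all lay above the wild-type libraries. The expected counts were 205, 150 and 158 in wild type A, F and L and 296, 482 and 509 in mutants C, D and Q, or wild-type levels of 8.15, 9.46 and 9.35 CPM and mutant levels of 32.6, 23.0 and 15.8 CPM. The wild-type libraries were close together, and the mutant libraries spread over a wider range that began above them. With all libraries the log2 change was 1.40 (standard error 0.28, edgeR adjusted p = 0.30), a 2.64-fold difference. Without mutant C it was 1.1 (standard error 0.18, 95% interval 0.69 to 1.51, edgeR adjusted p = 0.044), and with any other library left out it ran from 1.33 to 1.63 with adjusted p from 0.30 to 0.84. DESeq2 called it with all libraries (log2 change 1.44, adjusted p = 0.0040), while limma-voom did not (adjusted p = 0.33 with all libraries and 0.069 without mutant C). It was above 0 under every alternative run. In TPM, Hpgd was 10.4, 10.6 and 10.3 in wild type A, F and L, against 12.4, 25.7 and 15.8 in mutants C, D and Q, so mutant C, the highest library in CPM, was the lowest mutant library in TPM.

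The rest of the pathway was read from 6 lists of other genes for release, synthesis, breakdown, transport and receptors, 83 of which were in the tables. Of the 38 tested with all libraries, 0 passed by edgeR over all genes, beside 0.155% of all genes tested, and 3 had an unadjusted p under 0.05, beside 4.80%. The count was also 0 by DESeq2 and by limma-voom, with 7 and 3 at an unadjusted p under 0.05, against 1193 and 536 of all 12222 genes. Leaving mutant C out, 0 of 41 passed and 3 again lay at that level, against 1306 of all 12614 genes. Those 3 were Ggt1, Cyp2j6 and Ltb4r1 with all libraries, and Pla2g15, Mgll and Ltb4r1 without mutant C, named here after their values were seen. Mgll was tested only without mutant C, where its log2 change was -2.34. Mgll passed the low-count filter there only through the wild-type libraries, so a lower mutant level was built into its being tested. The median log2 change of the tested genes was 0.23 with all libraries and 0.04 without mutant C. Groups did not overlap for 11 of the 38 (7 higher, 4 lower in the mutant), beside 22.0% of all genes tested.

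Among other genes of arachidonate release, the most abundant by TPM were Pla2g15, the lysosomal phospholipase A2 gene, with a wild-type mean of 40.8 ± 1.51 CPM and a mutant mean of 43.3 ± 6.21 CPM (SD, n = 3), and Pla2g16 with 11.1 ± 1.97 and 22.3 ± 20.6 CPM. Of the other lipoxygenase and leukotriene genes, Mgst3, a microsomal glutathione transferase gene, had 13.6 ± 4.07 and 38.3 ± 39.5 CPM, and Ptgr1, which encodes a reductase that inactivates leukotriene B4, 28.5 ± 1.67 and 51.1 ± 36.8 CPM. The higher mutant means of Pla2g16, Mgst3 and Ptgr1 rest on mutant C: without it the log2 change went from 0.98 to -0.10 for Pla2g16, from 1.48 to 0.19 for Mgst3 and from 0.84 to 0.07 for Ptgr1. For Pla2g15 it was 0.09 with all libraries and 0.19 without mutant C. Over the 6 lists, 12 genes were at 0 counts in all 6 libraries, among them the lipoxygenase genes Alox12b and Alox12e, named after their values were seen.

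Of the other prostanoid synthase genes, Ptges3, a cochaperone with prostaglandin E synthase activity, was at 415 ± 28.5 CPM, against 477 ± 85.7 CPM in mutant libraries, and Akr1b3, an aldose reductase gene, 168 ± 15.8 and 297 ± 185 CPM. The log2 change of Akr1b3 was 0.82 with mutant C and 0.17 without it. All 6 tested members of that list were above 0 on the log2 scale in both fits, with a median of 0.66 with all libraries and 0.14 without mutant C. In the list of other breakdown and transport genes, Ptgr2, which encodes a prostaglandin reductase acting after the Hpgd step, had 48.7 ± 3.28 and 54.2 ± 10.1 CPM, and the leukotriene C4 exporter gene Abcc1 97.8 ± 2.05 and 79.0 ± 28.0 CPM. Neither shared the change of Hpgd: the log2 change of Ptgr2 without mutant C was -0.02.

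Receptors for eicosanoids were transcribed at modest levels, and their summed level was 67.2 to 70.2 CPM over the wild-type and 67.5 to 71.9 CPM over the mutant libraries. The most abundant by TPM were Ptger3, an E prostanoid receptor gene, with a wild-type mean of 10.9 ± 0.766 CPM and a mutant mean of 14.5 ± 3.39 CPM, and Cysltr1, a receptor gene for cysteinyl leukotrienes, with 13.1 ± 0.345 and 13.7 ± 3.15 CPM. Ltb4r1, the high-affinity leukotriene B4 receptor gene, had 2.85 ± 0.583 and 1.69 ± 0.0361 CPM and did not pass (edgeR adjusted p = 0.58 with all libraries and 0.43 without mutant C). Of the epoxide pathway, Cyp2j9 and Cyp2j6, both epoxygenase genes, were the most abundant by TPM, and neither reached a mean above 2.08 CPM. Cyp2j9 had 1.37 ± 0.236 and 1.83 ± 1.08 CPM in wild type and mutant, and Cyp2j6 0.827 ± 0.350 and 2.08 ± 0.873 CPM.

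**Figure D4:**
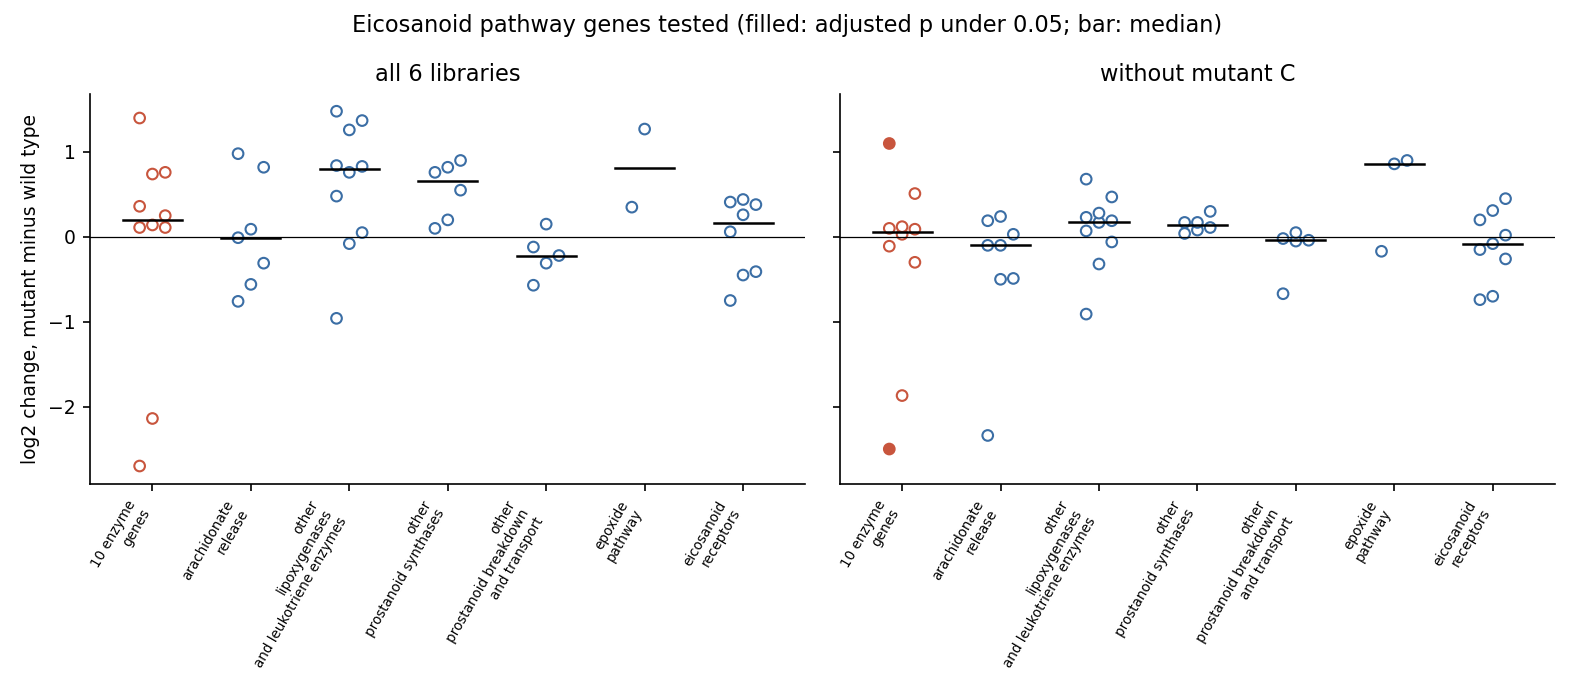
Log2 change (mutant minus wild type) of every tested gene in the set of 10 (red) and in 6 lists of other pathway genes (blue), with all 6 libraries and without mutant C, where filled points have an adjusted p under 0.05 and bars mark medians. The only filled points are Alox5 and Hpgd without mutant C, and the median of the other lipoxygenase and leukotriene list is 0.79 with mutant C and 0.18 without it.

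The genes whose pattern over the 6 libraries was most like that of Alox5 were sought among 10478 tested genes with a mean of at least 50 counts. The likeness was Pearson's r of log2 CPM, a description that rests largely on the gap between the groups. The first was Cd55, the gene of a complement regulator of the cell surface, with r = 0.998, at 9.38, 6.24 and 8.47 CPM in wild type A, F and L and 1.32, 2.01 and 1.98 CPM in mutants C, D and Q. The second was Gata2 with r = 0.996, and the third Aqp9, a water and glycerol channel gene, with r = 0.993. Aqp9 had a much smaller difference, with a log2 change of -0.36. In Alox5, Cd55, Gata2 and Aqp9 alike, wild type A was the highest and F the lowest of the wild-type libraries, and C the lowest mutant library. Genes picked by r over these same 6 libraries share much of that order through the picking, so it is no further evidence of a link. For Hpgd the nearest were Rnf149, a ubiquitin ligase gene, Uck2, a uridine-cytidine kinase gene, and Slc46a3, a lysosomal transporter gene, with r = 0.992, 0.991 and 0.987. None of those passed the test, and their log2 changes without mutant C were 0.08, 0.19 and 0.35.

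Markers of other cell types moved between the same groups as Alox5 and Hpgd, and their part in either result was not tested. The 12 mast cell and basophil markers summed to 146 to 178 CPM over the wild-type libraries and 16.3 to 29.3 CPM over the mutant ones, with Cma1, Tpsb2, Tpsab1 and Mcpt4 at 0 counts in all 6 libraries. With all libraries 0 of the 6 tested passed by edgeR, and without mutant C 5 fell, beside 0.155% of all genes that passed and 0.761% that fell. Among the 5 were Cpa3, a mast cell protease gene, and Hdc, which encodes the histamine-forming enzyme. Cpa3 went from 67.9 ± 7.67 CPM in wild type to 6.16 ± 4.21 CPM over the 3 mutant libraries, and Hdc from 44.8 ± 14.2 to 6.33 ± 2.24 CPM. Another of the 5, Ms4a2 (5.15 ± 3.11 and 0.204 ± 0.208 CPM), passed the low-count filter only through the wild-type libraries, so its lower mutant level was built in. The 10 megakaryocyte markers summed to 121 to 128 CPM in wild type and 51.1 to 86.5 CPM in the mutant. Of the 8 tested, 2 fell with all libraries and 5 without mutant C by edgeR. Over all genes, 0.155% passed with all libraries and 0.761% fell without mutant C. The 2 were Gp5 (3.04 ± 0.622 and 0.104 ± 0.0538 CPM) and Treml1 (5.10 ± 0.321 and 0.457 ± 0.185 CPM). Both passed the low-count filter only through the wild-type libraries, so a lower mutant level was built into their being tested. The integrin gene Itgb3 was at 26.9 ± 2.36 and 14.0 ± 4.52 CPM. The 5 eosinophil markers summed to 17.9 to 19.9 and 9.08 to 12.2 CPM. With all libraries 0 of the 2 tested passed (Siglecf at an edgeR adjusted p of 0.42), and without mutant C 1, Siglecf, fell, beside 0.761% of all genes.

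Beside Hpgd, the 10 hepatoblast markers summed to 51.9 to 110 CPM over the wild-type libraries and to 205, 106 and 593 CPM in mutants C, D and Q. By edgeR 0 of the 10 passed in either fit, beside 0.155% of all genes with all libraries and 0.0793% that rose without mutant C. At an unadjusted p under 0.05 were 7 and 8 of the 10, beside 587 of 12222 and 1306 of 12614 genes. By mean CPM over all 6 libraries the most abundant hepatoblast markers were Afp, at 15.1 ± 11 and 111 ± 111 CPM, and Alb, at 14.5 ± 11.8 and 100 ± 103 CPM. Dlk1, named after its values were seen, was higher than both in wild type and had 35.3 ± 3.35 and 32.3 ± 10.1 CPM. In CPM, Hpgd was highest in mutant C and lowest in Q, and the hepatoblast sum was highest in Q and lowest in D. In TPM, mutant C was instead the lowest mutant library for Hpgd. The 12 monocyte and macrophage markers summed to 379 to 406 CPM over wild-type libraries. Their sums were 1113, 467 and 408 CPM in mutants C, D and Q, the same order as Hpgd in CPM. Vsig4 was at 0 counts in all 6, and 0 of 9 were past the threshold in either fit (1 at an unadjusted p under 0.05 in each, against the same shares of all genes as above). The 13 erythroid markers summed to 577 to 1020 CPM over wild-type libraries and to 2273, 431 and 416 CPM in mutants C, D and Q, again the order of Hpgd in CPM. Of these 13, 1 fell with all libraries and 4 without mutant C by edgeR, beside 0.155% of all genes that passed and 0.761% that fell. At an unadjusted p under 0.05 were 7 and 13 of them, beside 587 of 12222 and 1306 of 12614 genes. Without mutant C the log2 change was below 0 for 12 of them. The 10 neutrophil markers summed to 2510 to 3628 and 2749 to 2888 CPM, and 0 of those tested passed in either fit, also at an unadjusted p under 0.05.

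**Figure D5:**
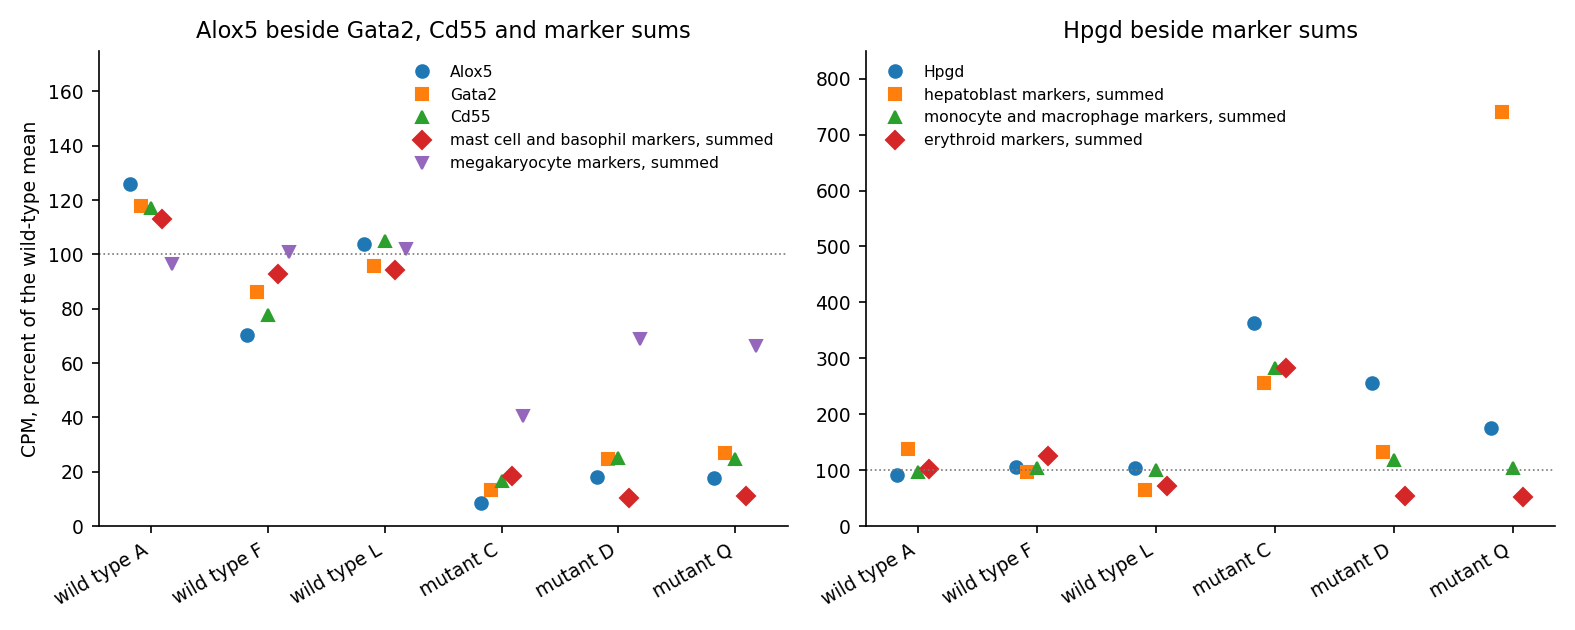
CPM in each library as a percent of the wild-type mean, for Alox5 beside Gata2, Cd55 and 2 summed marker lists (left) and for Hpgd beside 3 summed marker lists (right). Alox5 is at 8.56%, 18% and 17.7% in mutants C, D and Q and the mast cell and basophil sum at 18.5%, 10.3% and 11%, while Hpgd is at 363%, 256% and 176% and the hepatoblast sum at 256%, 132% and 741%. In the same libraries the monocyte and macrophage sum is at 283%, 118% and 104%, and the erythroid sum at 282%, 53.4% and 51.5%.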

How the data were processed

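RSEM tables of 6 libraries were used. Per the file headers, the authors deposited expected counts (estimated reads per gene, not normalized), TPM and FPKM; FPKM was not used. RSEM 1.2.18 with Bowtie 1.1.1, CASAVA 1.8.2 and the build mm10 are listed per the submitters' processing notes. The gene annotation and any use of strand are not given there. Symbols were matched by Ensembl identifier (24448 of 24815). Rounded counts were filtered with filterByExpr (minimum count 10), TMM-scaled and tested over all genes with edgeR 4.0.16 (quasi-likelihood F test, Benjamini-Hochberg, threshold 0.05) in R 4.3.3; the standard error is the absolute log2 change over the square root of F. DESeq2 1.42.0, limma-voom and limma 3.58.1 on log2(TPM + 1) or log2(TPM + 0.1), RLE scaling, no filter, and each library left out were alternatives. Replicate letters differ between groups, so nothing was paired. Within a group, no pair of libraries had a chi-square below 9.26 per gene, above counting noise. The fit was tested on simulated counts for 12222 genes: it called 80 of 100 genes changed by 2 on the log2 scale, 98 of 100 changed by 3, and 11 of 12022 unchanged. Simulated libraries of a group differed only by depth and random spread, so none stood apart as mutant C did. These shares are therefore not the power of the test for the real libraries.

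The members and lists were chosen with earlier results of these data known. Named genes come from the 10 members, Gata2, the 2 most abundant of each other list, called genes of the other pathway lists, and the 3 genes most alike each called member; others are said to be chosen after their values were seen. Dlk1, Ms4a2, Gp5, Treml1 and marker genes at 0 counts were also named after their values were seen. Cyp2c44 matched no gene. A gene that the rule names is not reported here.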

Additional observations from a re-analysis of the deposited data

How the results depend on the processing

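Genes past the threshold numbered 19 with all libraries, 36 without the low-count filter, 32 by limma-voom, 142 by DESeq2, 9 on log2(TPM + 0.1), and 0 to 106 with 1 library left out (106 without mutant C, 0 without any other, with 294 to 1611 at an unadjusted p under 0.05). Alternatives chosen after seeing the data gave 111 by limma-voom, 255 by DESeq2 and 71 on log2(TPM + 1), each without mutant C, and 0 on TPM with library medians aligned (428 at an unadjusted p under 0.05). Of the 10 enzyme genes, 1 passed without the filter (Alox5), 2 by DESeq2, and 0 to 2 with 1 library left out. Without mutant C, 1 passed by limma-voom, 2 by DESeq2 and 1 on TPM. Of 156 alternative values of the 10 genes, 124 kept direction and side of the threshold, 9 newly passed and 23 changed sign; none of the 23 belonged to Alox5, Alox12, Hpgds or Hpgd, and the cause was not tested. Uncentred TPM put the median gene at -0.54 (pseudocount 1) and -0.62 (0.1), and gave Pla2g4a -0.39 and -0.40, Alox5ap -0.02 and -0.02, Lta4h -0.30 and -0.30, Ltc4s -0.28 and -0.41, Ptgs1 -0.50 and -0.52, and Tbxas1 -0.16 and -0.25; relative to the median gene all 6 lay above 0. On TPM without mutant C the values were -0.09 for Pla2g4a, -0.002 for Alox5ap, -0.04 for Lta4h, -0.22 for Ltc4s and -0.03 for Ptgs1. Without mutant C, Ltc4s had -0.30 by edgeR and limma-voom and -0.29 by DESeq2, and Tbxas1 -0.11 by edgeR and DESeq2; with 1 library left out Ltc4s ran from -0.30 to 0.43 and Tbxas1 from -0.12 (without wild type A) to 0.51. Alox12 could not be fitted on TPM, where it falls below the minimum of 1. Ltc4s and Alox12, with means of 12.2 and 7.51 counts, are limited by depth.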

Other observations

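The deposited gene length is the mean transcript length that RSEM assigned in that library, and it enters the TPM. For Tbxas1 it was 1947, 1990 and 1410 bases in wild type A, F and L and 1990, 1350 and 1390 bases in mutants C, D and Q, at 24.0 to 55.0 expected counts. For Alox5 it ran from 2259 to 2693 bases in wild type and was 1854, 2821 and 2172 bases in mutants C, D and Q. For Alox5ap it lay between 845 and 852 bases in all 6 libraries.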
